A study of Mus musculus with 6 samples.

Results

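Inhibitors and D-type cyclins set the pace of the G1 phase of the cell cycle. The 9 genes described here are the inhibitors Cdkn1a, Cdkn1b, Cdkn1c, Cdkn2c and Cdkn2d, the D-type cyclins Ccnd1, Ccnd2 and Ccnd3, and Ccng2, a cyclin G. They were chosen by name, and every probe set that the platform annotation assigns to one of them, alone or with other symbols, was taken. This gave 10 probe sets out of 28944 on the array. Cdkn1b has 2 of them and the other genes have 1 each. Values are log2 signals on single Affymetrix arrays of left ventricle from 10-week-old male C57BL/6 mice, with 3 arrays labelled saline and 3 labelled 2-methyl-2-thiazoline (2MT). The 2MT hearts were taken 4 h after an injection of 50 mg/kg under the skin, and every sample, saline included, carries that same protocol text. No genotype or second agent is named for either group. Nothing in the labels ties each array to an animal of its own. The p-values below therefore rest on variation from array to array, part or all of which could be technical. The study was set up to learn how the compound protects the heart, and protection itself is not measured on these arrays.

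D-type cyclins bind the kinases CDK4 and CDK6, and the complexes phosphorylate the retinoblastoma protein so that E2F factors can switch on genes of DNA synthesis. Inhibitors of the Cip/Kip family (Cdkn1a, Cdkn1b and Cdkn1c) bind several cyclin-kinase complexes, while those of the INK4 family (Cdkn2c and Cdkn2d) bind CDK4 and CDK6 themselves. Most adult cardiomyocytes have left the cell cycle, and in them p21, the product of Cdkn1a, and p27, the product of Cdkn1b, are known for helping to hold that state. Several of these genes also answer within hours to signals that have little to do with division: Cdkn1a to p53 and to stress, and Cdkn1b and Ccng2 to FOXO factors.

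Cdkn1a and Ccnd3 were the members whose 2 groups of arrays did not overlap (2 of 10 probe sets, beside 21.3% of all tested), so the sequences upstream of their starts are shown. RefSeq (GRCm38.p6) windows of 250 bases upstream of an annotated start matched 6 of the 9 genes, 9 windows in all. Cdkn1c, Ccnd1 and Ccnd2 had no entry. Cdkn1a and Ccnd3 have 2 annotated starts each. Capitals mark the letters of the motifs named after the sequences, each on either strand, and all 4 windows lie on the plus strand.

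Cdkn1a, upstream start, chr17:29090729-29090978: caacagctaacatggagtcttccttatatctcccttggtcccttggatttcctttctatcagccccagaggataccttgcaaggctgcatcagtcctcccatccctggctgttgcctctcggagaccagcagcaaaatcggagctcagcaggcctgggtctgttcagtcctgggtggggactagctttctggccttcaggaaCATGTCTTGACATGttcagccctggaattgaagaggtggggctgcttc

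Cdkn1a, downstream start, chr17:29093519-29093768: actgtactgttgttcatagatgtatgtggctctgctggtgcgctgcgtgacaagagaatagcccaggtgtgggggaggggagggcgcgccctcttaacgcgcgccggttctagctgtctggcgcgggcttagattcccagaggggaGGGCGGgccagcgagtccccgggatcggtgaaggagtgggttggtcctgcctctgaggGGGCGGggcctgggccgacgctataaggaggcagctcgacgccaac

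Ccnd3, upstream start, chr17:47504801-47505050: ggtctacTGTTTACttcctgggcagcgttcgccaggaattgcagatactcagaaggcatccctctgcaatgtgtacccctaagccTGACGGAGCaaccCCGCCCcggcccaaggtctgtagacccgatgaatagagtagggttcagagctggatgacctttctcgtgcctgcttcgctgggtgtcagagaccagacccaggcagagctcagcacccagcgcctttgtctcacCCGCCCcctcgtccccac

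Ccnd3, downstream start, chr17:47593217-47593466: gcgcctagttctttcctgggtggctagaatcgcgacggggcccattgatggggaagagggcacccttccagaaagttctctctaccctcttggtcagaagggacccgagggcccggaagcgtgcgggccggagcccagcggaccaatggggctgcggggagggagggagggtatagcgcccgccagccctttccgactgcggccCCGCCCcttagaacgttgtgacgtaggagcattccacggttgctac

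The upstream window of Cdkn1a holds a pair of CATG cores, CATGNNNNNNCATG, the spacing found in a binding site of p53 whose half-sites abut. This motif was chosen after the sequence had been seen. It occurs in 0.490% of 32851 windows of the same length, and in 1 of the 9 member windows. The downstream window of Cdkn1a holds the SP1 box GGGCGG at 2 places. That box is in 7 of the 9 member windows and in 32.7% of all windows. The box consists of G and C alone, and these letters made up 42.8 to 77.2% of the member windows, against a median of 52.4% over all windows. Their part in the count was not tested. Ccnd3 has the FOXO motif GTAAACA in its upstream window, and of all windows 3.17% hold it. The antioxidant response element core TGACNNNGC lies in the same window and in that of Ccng2, and in 10.2% of all windows. An E-box (CACGTG), a STAT motif (TTCNNNGAA), a TATA box (TATAAA) and an E2F motif (TTTCGCGC) were looked for as well, and their letters are in 0 of the 9 member windows. A match describes letters and not a site in use, and the motifs named overlap nowhere in the 4 windows shown.

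Arrays of the same group correlated at 0.990 to 0.993 across 14480 tested probe sets, and arrays of different groups at 0.986 to 0.991. Probe sets were tested if their mean over the 6 arrays reached the median of all probe sets, 4.345, and the others are called dim. The 7 cardiomyocyte markers had means of 11.19 to 13.13, while 4 of 4 lymphocyte and 4 of 4 neutrophil markers were dim. The mean of 2 erythrocyte markers was 6.92 on saline 3 and 5.76 to 6.08 on the other arrays. Of 34 tested markers of 7 cell types, 0 passed in limma, and 3 had an unadjusted p under 0.05. Among them the endothelial genes Pecam1 and Kdr lay in opposite directions, with log2 differences of -0.33 and 0.24 (limma adjusted p = 0.052 and 0.23). Fabp4, listed as an adipocyte marker, was at -0.14 (limma adjusted p = 0.16). The other 3 of 4 adipocyte markers were dim, so Fabp4 stood alone for that type, and which cells its signal comes from was not tested. Pecam1 passed in 6 of 16 alternatives, with adjusted p values from 0.014 to 0.18, and its part in the members' values was not tested. In left ventricle as a whole, fewer cells of a type and less RNA per cell cannot be told apart.

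None of the 10 probe sets passed the test between 2MT and saline hearts. Cdkn1a came closest, with a signal 1.48-fold lower in 2MT, and it was the 1 member with an unadjusted p under 0.05. The other 9 probe sets differed by 0.15 or less on the log2 scale, in either direction, and their 95% intervals included 0. Over all 14480 probe sets, limma called 420 at an adjusted p under 0.05, or 2.9%, with 189 higher (1.31%) and 231 lower (1.6%) in 2MT. The 0 of 10 members called is read beside that 2.9%. The overall count fell to 176 without saline 1, 222 without saline 2, 179 without 2MT 2 and 201 without 2MT 3, and to 225 without a variance trend, while the median size of a difference over all tested probe sets was 0.09.

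**Figure D1:**
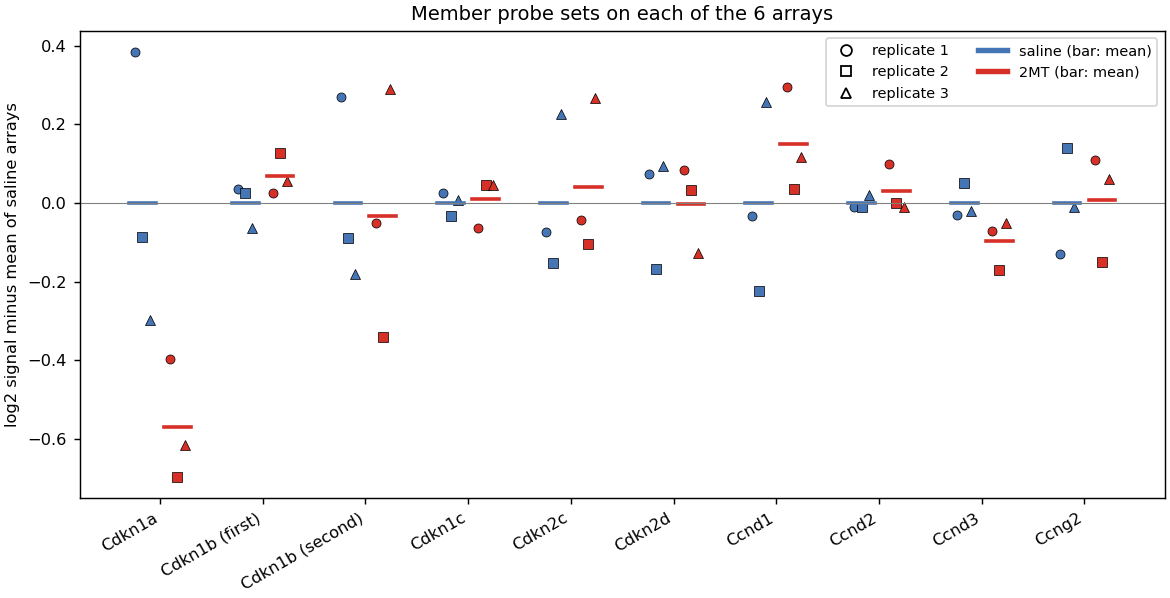
Log2 signal of each member probe set on each array, given as the distance from that probe set's mean over the saline arrays (blue, saline; red, 2MT; symbols, replicate number; bars, group means). The Cdkn1a points of the 2 groups lie apart, with saline 1 highest, those of Ccnd3 are apart by 0.02, and in the other 8 probe sets the groups overlap.

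All 10 probe sets were bright enough to be tested, with means over the 6 arrays from 5.02 (Cdkn2c) to 8.89 (Ccnd2). Signals of different probe sets depend on their probes and are not compared with each other. The 2 without overlap, Cdkn1a and Ccnd3, were both lower in 2MT, as were 9.74% of all tested probe sets. With 3 arrays against 3, the smallest p an exact permutation test of 1 probe set can give is 0.1, so Cdkn1a and Ccnd3 are at that limit.

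Among the Cip/Kip inhibitors, Cdkn1a, which encodes p21 and arrests cells after DNA damage or stress, read 7.29, 6.82 and 6.61 on the saline arrays and 6.51, 6.21 and 6.29 on the 2MT arrays. Each 2MT array was below each saline array, the closest pair being saline 3 and 2MT 1, 0.10 apart. Saline arrays were spread more widely, at 6.91 ± 0.35, than 2MT arrays, at 6.34 ± 0.16 (SD, n = 3). The log2 difference was -0.57 ± 0.15 (SE), with a 95% interval from -0.91 to -0.23, or 1.17-fold to 1.88-fold lower. Its unadjusted limma p was 0.0037, rank 668 of the tested probe sets, and its adjusted p was 0.081. At its spread, a difference of 0.66 would have been needed to pass. Of all tested probe sets, 1.26% had a larger difference in either direction.

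The call on Cdkn1a turned with single choices. Without saline 1, the highest array, the difference was -0.38 (adjusted p = 0.17 in limma), and without saline 3, the lowest of its group and the array with the highest erythrocyte markers, it was -0.72 (adjusted p = 0.034). The part of the erythrocyte signal in this was not tested. With dim probe sets left out more strictly, at means under 5.345, the difference stayed at -0.57 and passed (adjusted p = 0.049). Over 15 alternatives the difference ran from -0.72 to -0.38, lower in 2MT each time, and the adjusted p from 0.020 to 0.26, with 3 of the 15 under 0.05.

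**Figure D2:**
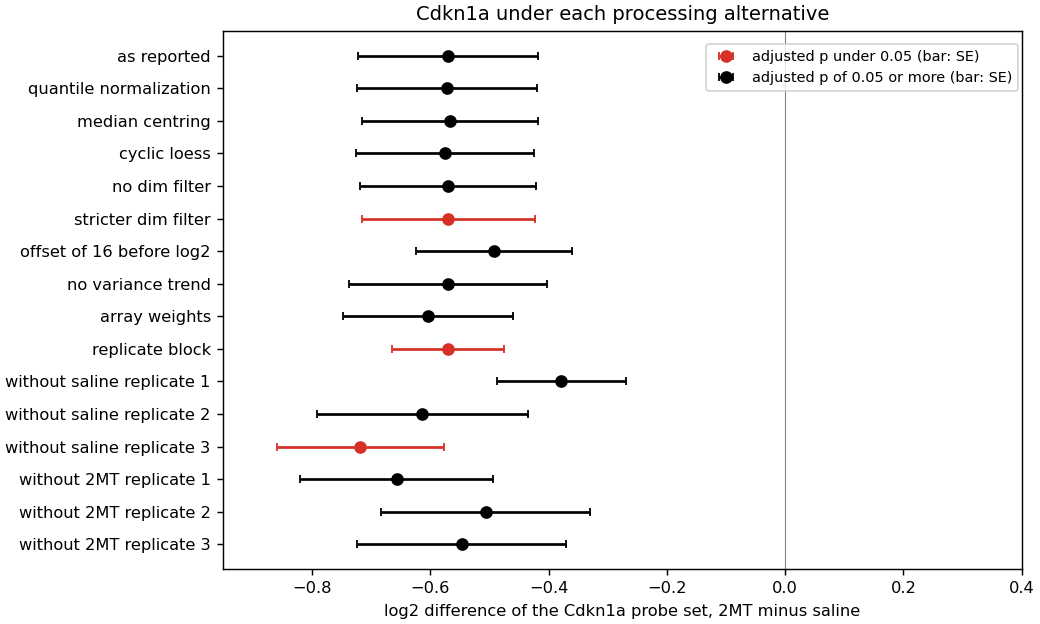
Log2 difference of the Cdkn1a probe set (2MT minus saline, horizontal axis) with its SE under each way of processing the arrays (vertical axis), in red where the limma adjusted p was under 0.05. All values lie below 0, between -0.72 and -0.38, and 3 of the alternatives are red.

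The probe set of Cdkn1a, 10443463, also carries the symbol 4930567H12Rik, a long non-coding RNA that RefSeq places on another chromosome. Both RefSeq transcripts among the 9 accessions listed for the probe set belong to Cdkn1a. How much the second gene adds to this signal was not tested, so the value is that of the probe set.

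Cdkn1b encodes p27, which binds cyclin E complexes with CDK2 and keeps them inactive. Its first probe set, 10542310, read 6.40, 6.39 and 6.30 in saline and 6.39, 6.49 and 6.42 in 2MT. The groups overlapped, and the log2 difference of 0.07 ± 0.07 (SE) had a 95% interval from -0.08 to 0.22 (limma adjusted p = 0.67). A change of 1.23-fold would have passed there. The second probe set, 10542317, read 5.88, 5.52 and 5.43 in saline and 5.56, 5.27 and 5.90 in 2MT, a spread between arrays about as wide as that of Cdkn1a. Its difference was -0.03 ± 0.16 with an interval from -0.40 to 0.33 (adjusted p = 0.94). At that spread, a change of 1.63-fold would have been needed to pass. The signs of the 2 probe sets differ, and both intervals hold 0.

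Cdkn1c encodes p57, an imprinted inhibitor needed in development. It read 5.83, 5.77 and 5.81 in saline and 5.74, 5.85 and 5.85 in 2MT (probe set 10569429). The highest and lowest values were both 2MT arrays, and the difference was 0.01 ± 0.08 (SE, interval -0.16 to 0.18, limma adjusted p = 0.97).

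Of the INK4 inhibitors, Cdkn2c, which encodes p18, read 4.93, 4.85 and 5.23 in saline and 4.96, 4.90 and 5.27 in 2MT (probe set 10515090). Replicate 3 was the highest array in both groups, and the group means were 0.04 apart (interval -0.26 to 0.34, limma adjusted p = 0.92). It was the dimmest member, 0.68 above the limit for testing, and its log2 differences may be understated. Cdkn2d, which encodes p19, read 6.14, 5.90 and 6.16 in saline and 6.15, 6.10 and 5.94 in 2MT (probe set 10591517). The lowest array of each group was near 5.9 and the others near 6.1, and the difference was -0.0033 ± 0.09 (SE, interval -0.21 to 0.21, adjusted p = 0.99).

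**Figure D3:**
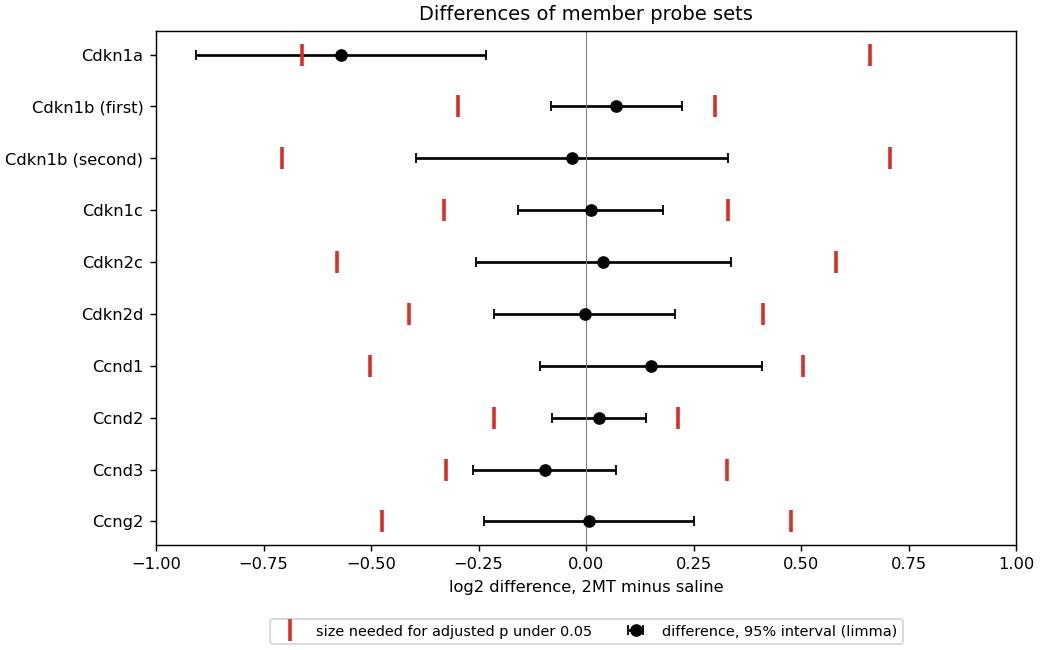
Log2 difference between 2MT and saline for each member probe set (points) with its 95% interval (bars), and the size, in either direction, that would have given an adjusted p under 0.05 at that probe set's spread (red ticks). The interval of Cdkn1a runs from -0.91 to -0.23 and those of the other 9 include 0, the narrowest being that of Ccnd2, from -0.08 to 0.14.

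Of the D cyclins, Ccnd2 had the narrowest interval of all members. Ccnd2, whose forced expression makes adult mouse cardiomyocytes copy DNA, read 8.86, 8.86 and 8.89 in saline and 8.97, 8.87 and 8.86 in 2MT (probe set 10548105). Apart from 2MT 1 all arrays lay between 8.86 and 8.89. The difference was 0.03 ± 0.05 (SE), and its 95% interval ran from 1.06-fold lower to 1.10-fold higher (limma adjusted p = 0.83). A change of 1.16-fold would have passed, the smallest such size among the members.

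Ccnd1, which responds to growth factors in many cell types, read 6.83, 6.64 and 7.12 in saline and 7.16, 6.90 and 6.98 in 2MT (probe set 10569646). Saline 3 was above 2MT 2 and 2MT 3, so the groups overlapped although the 2MT mean was higher. The log2 difference of 0.15 ± 0.12 (SE) was the largest after that of Cdkn1a, with an interval from -0.11 to 0.41 (limma adjusted p = 0.56). It ranged from 0.04 to 0.28 with single arrays left out, and was 0.28 without saline 3, and of all tested probe sets 26.8% had a larger difference.

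Ccnd3, the D cyclin found widely in differentiated tissue, read 5.95, 6.03 and 5.96 in saline and 5.91, 5.81 and 5.93 in 2MT (probe set 10445688). All 2MT arrays were lower, by a gap of only 0.02 between the closest pair. The difference was -0.10 ± 0.07 (SE), with an interval from 1.20-fold lower to 1.05-fold higher (limma adjusted p = 0.56).

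Ccng2 encodes cyclin G2, an unusual cyclin that goes up in cells leaving the cycle. It read 4.95, 5.22 and 5.07 in saline and 5.19, 4.93 and 5.14 in 2MT (probe set 10523297). The values of the groups were interleaved, and the difference was 0.0067 ± 0.11 (SE, interval -0.24 to 0.25, limma adjusted p = 0.98). Its level lay 0.74 above the limit for testing.

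**Figure D4:**
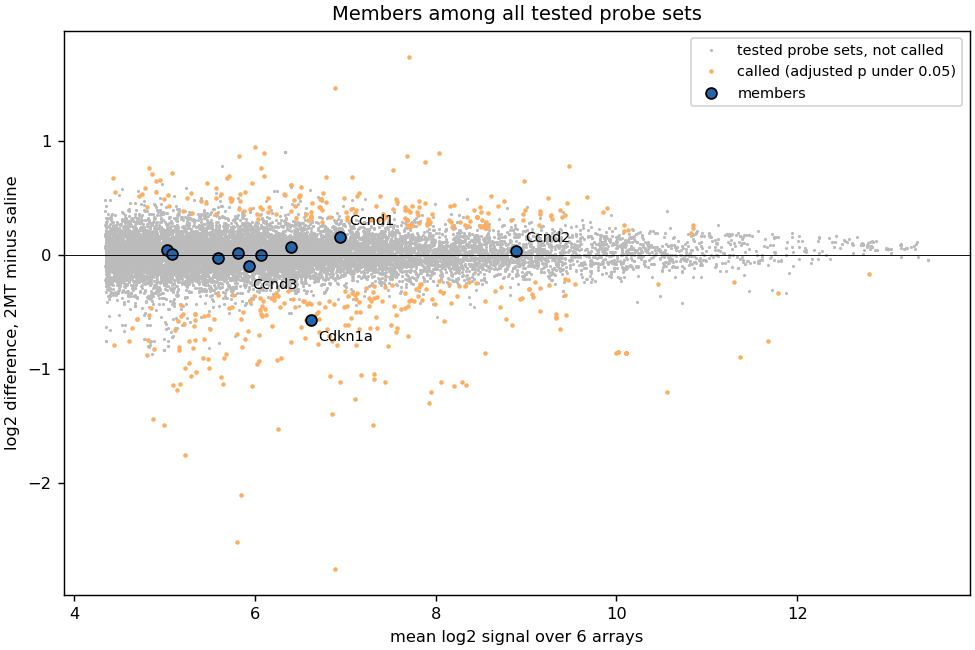
Mean log2 signal over the 6 arrays (horizontal axis) against the log2 difference between 2MT and saline (vertical axis) for all 14480 tested probe sets (grey, not called; orange, the 420 called) and the 10 member probe sets (blue). Cdkn1a lies at -0.57, and the other members lie between -0.10 and 0.15.

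The genes around the members were read from 11 lists: relatives, kinases, cyclins, targets and regulators. Of 81 genes tested in them, 8 passed (2 rose and 6 fell), or 9.88%, against 2.9% of all probe sets tested. Their median difference was -0.02 on the log2 scale, against 0.0033 over all probe sets tested. The count was 5 without saline 1, 2MT 2 or 2MT 3, each left out alone, and 5 without the variance trend. The lists were chosen with results of these data known, and some genes stand in more than 1 list, so their counts are descriptions. The 2 shares also have unlike bases. List genes have 1 probe set each, with their symbol alone, while the 2.9% covers every tested probe set. With 1 probe set per gene, 488 passed among all genes, and their share was not counted.

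The partners of the members showed no calls. Of 4 tested cyclin-dependent kinases 0 passed in limma (1 at an unadjusted p under 0.05), with a median of 0.16. Cdk2, the partner of cyclin E, read 5.56, 5.51 and 5.35 in saline and 5.71, 5.68 and 5.79 in 2MT. The groups did not overlap, and its difference was 0.25 ± 0.09 (SE, limma adjusted p = 0.17). Cdk4, the main partner of the D cyclins, averaged 7.69 ± 0.09 in 2MT against 7.53 ± 0.14 (SD, n = 3, limma adjusted p = 0.31). Of the relatives, Ccng1, a p53-induced cyclin related to Ccng2, read 11.21, 11.22 and 11.34 in saline and 11.42, 11.44 and 11.47 in 2MT. All 2MT arrays were higher, and its difference of 0.19 ± 0.05 (SE) had a limma adjusted p of 0.065, which passed in 5 of 16 alternatives (0.021 to 0.23). Cdkn2b, an INK4 inhibitor, was at 4.35 ± 0.06 against 4.56 ± 0.30 (SD, n = 3, limma adjusted p = 0.50), and Cdkn2a and Cdkn3 were dim.

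Downstream, cell division genes were mostly dim in both groups. Of 12 mitosis genes 11 were dim, Mki67, the classic marker of dividing cells, at a mean of 3.38 among them, and the 1 tested, Cenpf, averaged 5.33 ± 0.17 in 2MT against 5.20 ± 0.13 (SD, n = 3, limma adjusted p = 0.63). Of 14 S phase genes 7 were dim, and of the 7 tested 0 passed in limma (1 at an unadjusted p under 0.05, Tk1, thymidine kinase, at 0.23 ± 0.10, SE). Pcna, the sliding clamp of DNA polymerase, differed by -0.13 ± 0.06 (SE, limma adjusted p = 0.34). Of 8 other cyclins measured, 6 were dim, those of the A, B and E types among them. Ccnh (0.10) and Ccni (-0.08) were tested, and 0 passed in limma (0 at an unadjusted p under 0.05). Among 13 tested pocket protein, E2F and DREAM genes 0 passed in limma (2 at an unadjusted p under 0.05): Rbl2, which encodes the pocket protein p130 of resting cells, at 0.23 ± 0.09 (SE), and the histone-binding subunit Rbbp4 at -0.25 ± 0.07 (SE). Their limma adjusted p values were 0.21 and 0.084.

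**Figure D5:**
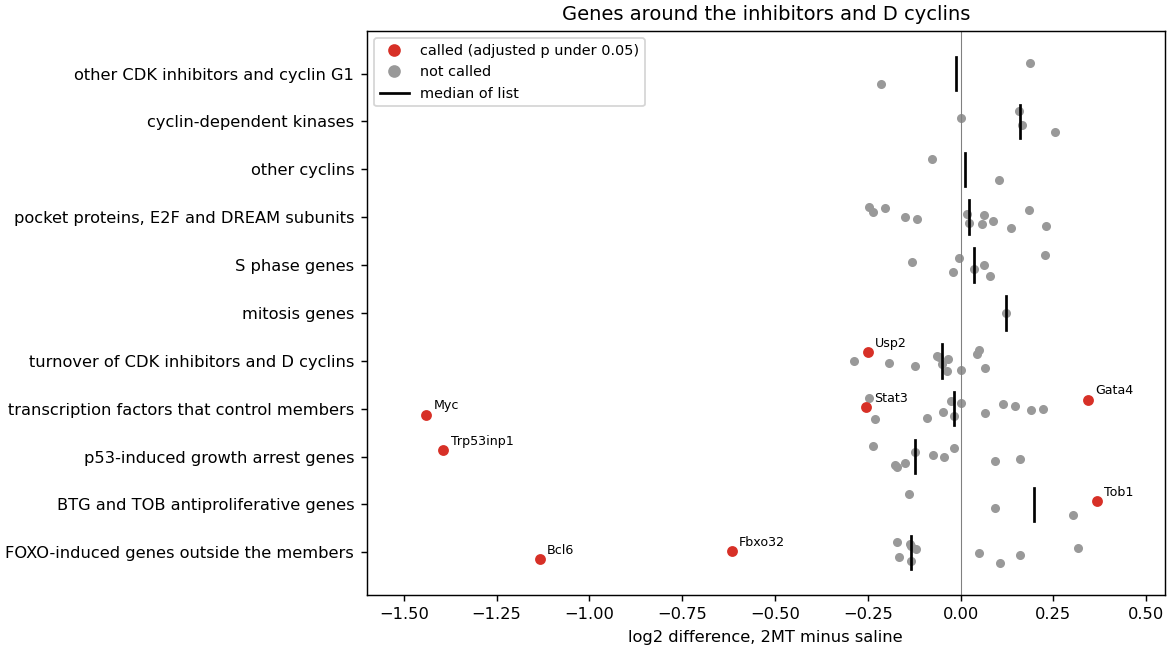
Log2 difference between 2MT and saline (horizontal axis) for each tested gene of the 11 lists (rows), in red where the limma adjusted p was under 0.05, with the list median as a black line. The 8 called genes lie in 5 lists: Myc, Trp53inp1, Bcl6, Fbxo32, Stat3 and Usp2 fell, and Gata4 and Tob1 rose.

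Calls lay in the lists of transcription factors, p53-induced genes, FOXO-induced genes, BTG and TOB genes, and genes for turnover of the members' proteins. Of 15 tested transcription factors known to act on a member, Myc and Stat3 fell and Gata4 rose (median -0.02). Myc, which represses Cdkn1a and activates Ccnd2, read 5.70, 5.31 and 5.78 in saline and 4.21, 4.27 and 3.99 in 2MT. All 2MT arrays were under the limit for testing of 4.345, so Myc was tested only because its saline arrays were bright, and the size of its fall is uncertain at the dim end. The log2 difference was -1.44 ± 0.14 (SE, limma adjusted p = 4.6e-04). Gata4, a cardiac factor that drives Ccnd2, rose by 0.34 ± 0.06 (SE), to 7.98 ± 0.06 from 7.63 ± 0.08 (SD, n = 3; limma adjusted p = 0.017). Stat3, a cytokine-activated factor, fell by 0.25 ± 0.05 (SE, limma adjusted p = 0.030). Of the factors not called, Nfe2l2 had the smallest p, with a difference of -0.25 (limma adjusted p = 0.078). Foxo1 was at 6.34 ± 0.08 against 6.57 ± 0.07 (SD, n = 3, limma adjusted p = 0.14). Foxo3 and Foxo4 differed by -0.09 and -0.02 (limma adjusted p = 0.57 and 0.95). In the list of 15, the mean was lower in 2MT for 8 and higher for 6.

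Of 11 tested p53-induced growth arrest genes, the list nearest to Cdkn1a, Trp53inp1 fell and the other 10 did not pass (median -0.12). Trp53inp1, a stress protein that enhances p53 activity, read 7.74, 7.43 and 7.46 in saline and 6.13, 6.18 and 6.14 in 2MT, a difference of -1.39 ± 0.09 (SE, limma adjusted p = 2.1e-05). The mean was lower in 2MT for 9 of the 11 and higher for 2, Sesn1 and Btg2. Apart from Trp53inp1, the lower genes had 95% intervals that included 0. The interval of Sesn1, at 0.16, ran from 0.0015 to 0.32. Ccng1, also p53-induced but listed with the relatives, was higher in 2MT by 0.19, with groups that did not overlap. The share of all tested probe sets with a lower mean was not counted, so a general fall of p53-induced genes was not tested. Of 12 tested FOXO-induced genes, which share regulators with Cdkn1b and Ccng2, Bcl6, a transcriptional repressor, fell by 1.13 ± 0.16 and Fbxo32, an atrophy-linked ubiquitin ligase subunit, by 0.62 ± 0.08 (SE). Their limma adjusted p values were 0.0052 and 0.0040, and the median of the list was -0.13. Of 4 tested BTG and TOB genes, which slow division, Tob1 rose by 0.37 ± 0.05 (SE, limma adjusted p = 0.0053; median 0.20). Its arrays read 8.36, 8.40 and 8.43 in saline and 8.80, 8.69 and 8.80 in 2MT. Of 13 tested genes for turnover of the members' proteins, Usp2, a deubiquitinase that stabilises cyclin D1, fell by 0.25 ± 0.05 (SE, limma adjusted p = 0.039; median -0.05).

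Myc, Trp53inp1, Tob1, Bcl6 and Fbxo32 passed in each alternative in which they were tested. Gata4 lost its call when saline 1 (0.065), 2MT 2 (0.078) or 2MT 3 (0.079) was left out, and when no variance trend was used (0.066). Usp2 and Stat3 passed in 7 of 16 alternatives each and lost the call with any single array left out, at limma adjusted p values of 0.062 to 0.14 for Usp2 and 0.055 to 0.12 for Stat3.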

How the data were processed

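The deposited table gives 1 log2 signal per probe set and array, used as given. The log2 base comes from its range (0.51 to 13.5) and no header states it. MAS5 is named in the submitters' processing notes, with no role or version, and any other normalization is not given in the sources used here. Without detection calls, signal over background is unknown, and 3 arrays a group limit the precision.

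Probe sets were named through the platform annotation: 21789 carry 1 symbol, 1621 several and 5534 none, and 21698 of the first matched the mouse gene table. Each probe set was tested on its own, because Cdkn1a lies on 1 with several symbols. Of 174 list genes, 164 had a probe set with their symbol alone, the brightest being used. The comparison used limma 3.58.1 (R 4.3.3; eBayes with a variance trend, two-sided, Benjamini-Hochberg over 14480 probe sets, threshold 0.05). The size needed to pass keeps each probe set's SE and takes the largest p that was called. A simulation used independent noise, with 50 changes planted at each size. The procedure recovered 28% of 1.25-fold changes, 74% of 1.5-fold, 90% of 2-fold and 98% of 3-fold. Of its calls there, 5.84% were false. The number and sizes of the real changes are not known, so these rates need not hold for the members. A small change in a member could go uncalled. Figures used matplotlib 3.10.9 in Python 3.11.15.

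The members and lists were chosen with earlier results of these data known. Named by rule are all members and, per list, up to 4 called genes or, with no call, 2 with the smallest p. Dim genes, Nfe2l2, Foxo1, Foxo3, Foxo4, Sesn1 and Btg2 were named outside that rule. Alternatives were: each array left out, a block for the replicate number, limma array weights, eBayes with no trend, 1 probe set per gene, an offset of 16, a stricter dim filter (under 5.345) or none, and cyclic loess, median or quantile normalization.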

Additional observations from a re-analysis of the deposited data

How the results depend on the processing

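The 420 probe sets called became 225 without the variance trend and 176 to 479 with single arrays left out. The count of members called was 0 in 13 of 16 alternatives and 1, Cdkn1a each time, with the stricter dim filter, with the replicate block and without saline 3 (0 to 1 with single arrays left out). With 1 probe set per gene the count of 0 leaves out the probe set of Cdkn1a, which has several symbols and was not tested there. Cdkn1a was at -0.57 under the stricter filter and the block, and at -0.72 to -0.38 with single arrays left out. The 8 list genes became 5 without the variance trend and 5 to 7 with single arrays left out.

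Replicate numbers are shared between the groups, and the labels do not say whether they pair the samples. The deviations of same-numbered arrays correlated at -0.22, 0.05 and -0.0028, and those of different-numbered arrays at -0.27 to 0.26. With 3 arrays a group, deviations from the group means depend on each other, so these values cannot settle whether the numbers pair the samples. With the replicate block 393 probe sets passed, and Cdkn1a was at -0.57 (limma adjusted p = 0.020).

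Near 0 the sign of a difference turned. With single arrays left out, the second Cdkn1b probe set ran from -0.195 to 0.12, Cdkn1c from -0.0083 to 0.047, Cdkn2c from -0.073 to 0.15, Cdkn2d from -0.087 to 0.058, Ccnd2 from -0.0050 to 0.05 and Ccng2 from -0.058 to 0.085, none of them called. Ccng2 was at -0.0017 with array weights, and Myh6, a cardiomyocyte marker, at -0.017 under quantile normalization. The erythrocyte markers Bpgm and Alas2 ran from -0.24 to 0.0083 and from -0.79 to 0.17, positive without saline 3 alone. The cause was not tested. Cdkn1a and Ccnd3 were lower, and Ccnd1 and the first Cdkn1b probe set higher, in 2MT under every alternative in which they were tested. Cdkn2c, Ccng2 and Myc are under the stricter dim limit and were not tested there. How far each signal stands above background is not known.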
